A study of Mus musculus with 2 samples.

Results

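The genes described here encode the machinery that brings proteins and metabolites into mitochondria. They were taken as all protein-coding RefSeq genes whose symbol begins with Slc25a, Tomm or Timm followed by a digit, which gave 72 of the 21887 protein-coding genes on chromosomes 1 to 19, X and Y. Of these, 10 are Tomm genes, 15 are Timm genes and 47 are Slc25a genes. Expression was not measured, and each gene was described by the peaks of histone H3 lysine 27 acetylation (H3K27ac) called at it, a modification found at active promoters and enhancers.

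The peaks came from CUT&Tag, in which an antibody tethers a Tn5 transposase that cuts and tags the chromatin around the modified histones. Colonic macrophages of untreated male C57BL/6 mice aged 11.1 weeks were sorted as Siglec-F(-)Ly6C(lo)CD64(+) cells. The knockout library (Tle4cKO) was made from Tle4f/f Lyz2-Cre mice, which lose the Groucho-family corepressor Tle4 where Lyz2-Cre is active, in macrophages and other myeloid cells. The control library (WT) was made from mice with Lyz2-Cre and no floxed Tle4, so that both carried the Cre driver. Cells of 4 mice were pooled for each genotype before the assay, which left 1 library per genotype. No test between genotypes was therefore possible, no difference below has a replicate check, and every comparison is between these libraries.

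Most mitochondrial proteins are made in the cytosol and pass the outer membrane through the TOM complex, whose subunits are Tomm proteins, though not every Tomm gene encodes one. Proteins with a cleavable presequence then cross the inner membrane through TIM23, while the multispanning carriers are escorted by small Timm chaperones to TIM22. The Slc25 proteins are the carriers themselves, which exchange nucleotides, phosphate, amino acids, organic acids and cofactors across the inner membrane. Macrophages are known to change their mitochondrial metabolism with their activation state.

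The Tle4cKO list held 2350 summits, the points of highest signal of each peak, and the WT list 10474. Each summit carries the authors' score, taken to be a −log10 p- or q-value, with medians of 4.05 in the Tle4cKO list and 4.47 in the WT list. Such a score grows with read depth, which is unknown, so that scores were read against their own list. Only the alternative with a score of at least 5, given at the close, put the same cut on both lists. A peak missing from a list was not called there and may still carry signal. Of 15 macrophage markers, 0 had a summit within 1 kb of a gene end in Tle4cKO and 4 in WT (Cd14, Fcgr1, Cx3cr1 and Cd68), while Adgre1 and Csf1r had none in either library. The same count in Tle4cKO and in WT was 0 and 0 for 10 epithelial markers, 0 and 0 for 6 neutrophil markers, 0 and 0 for 9 fibroblast, muscle and endothelial markers, 0 and 1 for 8 T cell markers (Cd4), 0 and 1 for 6 B and plasma cell markers (Cd79b), and 1 and 1 for 7 dendritic cell markers (Xcr1). Within 10 kb the counts in Tle4cKO and in WT were 0 and 9 of 15 macrophage, 2 and 6 of 7 dendritic cell, 1 and 3 of 6 B and plasma cell, 1 and 3 of 9 fibroblast, muscle and endothelial, 0 and 2 of 8 T cell, 0 and 1 of 10 epithelial and 0 and 0 of 6 neutrophil markers. Over all protein-coding genes, 6.19% in Tle4cKO and 22.6% in WT had a gene-end summit. Within 10 kb 11.6% and 39.2% had one. The marker counts are small and were not tested against these shares. The part of other cell types, or of depth, in the results below was not tested.

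In Tle4cKO macrophages 6 of the 72 genes had a summit within 1 kb of a gene end (8.33%, 95% exact interval 3.12 to 17.3%), and in WT macrophages 24 did (33.3%, 22.7 to 45.4%). Over all protein-coding genes the shares were 6.19% in Tle4cKO and 22.6% in WT, the second just under the lower bound of that interval. All 6 genes with a Tle4cKO summit at an end also had a WT summit there, and 0 had a Tle4cKO summit alone, against 5.6% and 0.594% of all genes. Another 18 genes were called at an end in WT only (25%, 15.5 to 36.6%), against 17% of all genes, and 48 genes had neither. Of the 24 genes marked in WT, 6 were also called in Tle4cKO (25%, 9.77 to 46.7%), a share close to the 24.7% of all WT-marked genes, so the fewer calls in Tle4cKO say nothing particular about import and carrier genes. The intervals cover counting error over genes only.

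Within 10 kb of the gene, 8 of 72 genes (11.1%, 4.92 to 20.7%) had a summit in Tle4cKO and 32 (44.4%, 32.7 to 56.6%) in WT, against 11.6% and 39.2% of all genes. Both libraries had one at 7 genes (10.8% of all genes), Tle4cKO alone at 1 (0.832%) and WT alone at 25 (28.4%), and 39 genes had none. Of the 32 genes marked in WT, 7 were also marked in Tle4cKO (21.9%, 9.28 to 40%), against 27.6% of all such genes. The shares over all genes lie inside these intervals. In all, 8 distinct Tle4cKO summits and 36 distinct WT summits stood behind these counts, and 6 on each side had a summit of the other library within 500 bp.

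**Figure D1:**
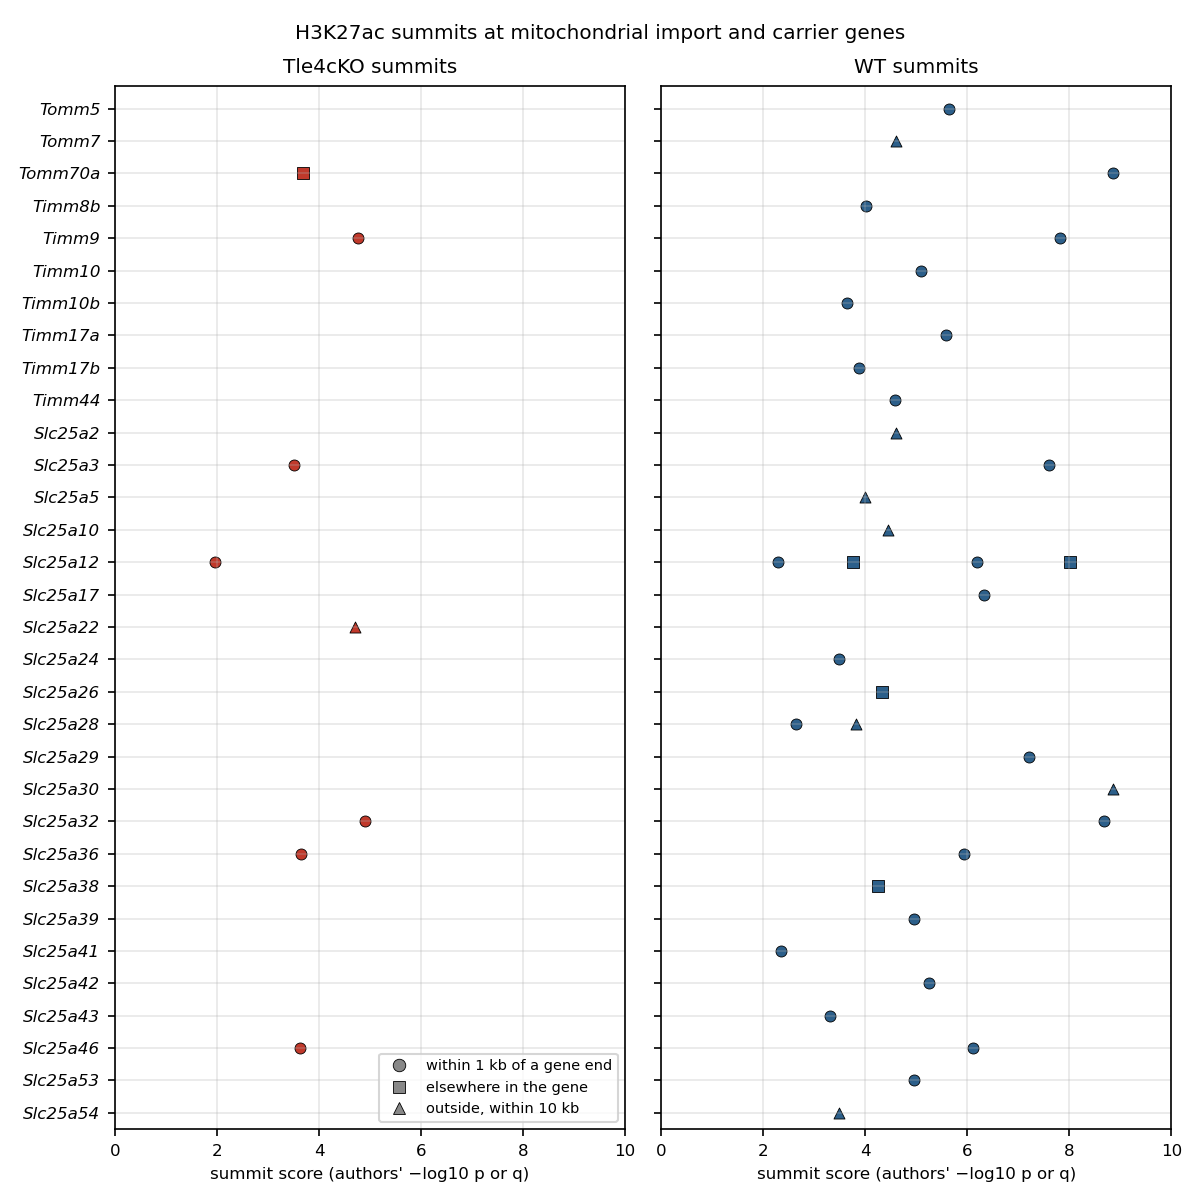
Score of every summit, the authors' −log10 p or q, at 32 of the 33 import and carrier genes with a summit in the gene or within 10 kb, with Tle4cKO on the left and WT on the right. Circles lie within 1 kb of a gene end, squares elsewhere in the gene and triangles outside it. Only 8 genes carry a point in the Tle4cKO panel, and no point in either panel reaches 10.

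The 6 genes called at an end in both libraries were Slc25a3, Slc25a12, Slc25a32, Slc25a36, Slc25a46 and Timm9. Their Tle4cKO scores lay between 1.96 and 4.90 with a median of 3.63, against 4.15 over the 1355 genes with a Tle4cKO gene-end summit. Their WT scores lay between 5.94 and 8.68 with a median of 6.90, against 7.07 over the 1225 genes called in both libraries. The 18 genes called in WT alone had a median WT score of 4.77 (4.75 over all such genes).

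The promoter sequences of the genes on which these results turn are given to show the letters under and beside the summits: Tomm70a (chr16:57121464-57121763, plus strand) for the highest WT gene-end score of the 72 genes, Timm9 (chr12:71136626-71136925, minus), Slc25a3 (chr10:91123918-91124217, minus), Slc25a12 (chr2:71367706-71368005, minus) and Slc25a36 (chr9:97110992-97111291, minus) for summits in both libraries, and the unmarked paralogues Slc25a13 (chr6:6217124-6217423, minus) and Slc25a33 (chr4:149774218-149774517, minus). Each holds 250 bases before and 50 from the listed start on, 5′ to 3′, from RefSeq on GRCm38.p6, the assembly of mm10. Capitals mark matches on either strand to motifs named for NRF1 (GCGC and GCGC with 2 bases between), ETS (CCGGAAG), SP1 (GGGCGG), YY1 (AAGATGGC), NFY (CCAAT), the E-box (CACGTG) and the TATA box (TATAAA).
Tomm70a: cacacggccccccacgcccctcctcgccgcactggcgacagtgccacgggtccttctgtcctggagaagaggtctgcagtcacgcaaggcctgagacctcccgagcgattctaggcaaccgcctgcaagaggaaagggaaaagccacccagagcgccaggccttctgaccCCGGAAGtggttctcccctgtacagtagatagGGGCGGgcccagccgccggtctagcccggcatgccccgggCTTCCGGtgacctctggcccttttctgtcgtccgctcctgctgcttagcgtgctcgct
Timm9: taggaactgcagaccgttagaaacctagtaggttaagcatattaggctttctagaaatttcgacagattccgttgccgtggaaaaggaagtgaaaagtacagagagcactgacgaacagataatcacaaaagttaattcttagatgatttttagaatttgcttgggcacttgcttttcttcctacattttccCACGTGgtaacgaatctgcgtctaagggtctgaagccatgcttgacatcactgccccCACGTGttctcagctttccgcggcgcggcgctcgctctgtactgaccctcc
Slc25a3: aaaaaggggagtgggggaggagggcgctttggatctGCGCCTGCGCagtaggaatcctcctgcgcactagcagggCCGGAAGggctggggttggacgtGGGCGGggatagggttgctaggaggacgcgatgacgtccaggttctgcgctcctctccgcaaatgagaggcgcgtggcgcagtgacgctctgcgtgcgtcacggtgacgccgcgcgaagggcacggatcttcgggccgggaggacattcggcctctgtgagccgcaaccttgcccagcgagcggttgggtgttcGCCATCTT
Slc25a12: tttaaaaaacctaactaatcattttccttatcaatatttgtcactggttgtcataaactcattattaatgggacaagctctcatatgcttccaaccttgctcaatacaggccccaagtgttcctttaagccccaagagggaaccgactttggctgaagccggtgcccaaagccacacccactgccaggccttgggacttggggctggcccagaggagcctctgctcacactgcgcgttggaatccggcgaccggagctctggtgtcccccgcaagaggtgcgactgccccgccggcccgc
Slc25a13: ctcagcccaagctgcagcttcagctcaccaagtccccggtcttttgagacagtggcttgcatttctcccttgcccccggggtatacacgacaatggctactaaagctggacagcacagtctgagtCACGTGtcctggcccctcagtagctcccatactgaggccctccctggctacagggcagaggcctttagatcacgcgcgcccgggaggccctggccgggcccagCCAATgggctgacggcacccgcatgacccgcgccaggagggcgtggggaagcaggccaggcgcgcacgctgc
Slc25a36: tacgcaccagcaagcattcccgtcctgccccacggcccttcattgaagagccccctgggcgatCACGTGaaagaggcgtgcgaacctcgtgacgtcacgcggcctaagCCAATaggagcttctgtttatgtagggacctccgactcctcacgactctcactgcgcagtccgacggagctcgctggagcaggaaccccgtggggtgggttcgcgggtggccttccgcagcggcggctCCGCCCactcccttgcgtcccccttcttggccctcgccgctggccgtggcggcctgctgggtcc
Slc25a33: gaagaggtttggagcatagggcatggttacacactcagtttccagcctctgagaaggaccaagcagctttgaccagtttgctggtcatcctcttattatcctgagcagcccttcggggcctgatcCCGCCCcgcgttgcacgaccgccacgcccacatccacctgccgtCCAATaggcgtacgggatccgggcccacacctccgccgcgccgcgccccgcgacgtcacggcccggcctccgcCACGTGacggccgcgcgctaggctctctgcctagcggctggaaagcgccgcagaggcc

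The promoters differed in which letters they held. Tomm70a had 2 ETS matches and 1 SP1 match, Slc25a3 had 1 match each to NRF1, ETS, SP1 and YY1, and Timm9 had 2 E-box matches in a stretch of 46% GC. Slc25a36 and its unmarked paralogue Slc25a33 held the same 3 motifs, SP1, NFY and the E-box, with a GC content of 66.7 and 66%. Slc25a12 held no match, and Slc25a13 held NFY and E-box matches. No motif match overlapped another in these promoters. The Tle4cKO summit of Slc25a12 and the WT summit beside it, the WT summits of Tomm70a and Slc25a36 and the Tle4cKO summit of Timm9 fall within the printed stretches. All other summits of these genes, among them the highest-scoring WT summit of Slc25a12, lie beyond them.

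Whether a gene was also called in Tle4cKO went with its WT score. Of the 11 genes with a WT gene-end score under 5, 0 were called in Tle4cKO (interval up to 28.5%), against 11.5% of all genes in that range. Of the 13 with a score of 5 to 10, 6 were called (46.2%, 19.2 to 74.9%), against 30% of all genes. Above that range 67.3% of all genes were called in both, but 0 of the 72 genes had a WT score of 10 or more, which 9.01% of all WT-marked genes had. The highest WT gene-end score among import and carrier genes was 8.86, at Tomm70a.

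**Figure D2:**
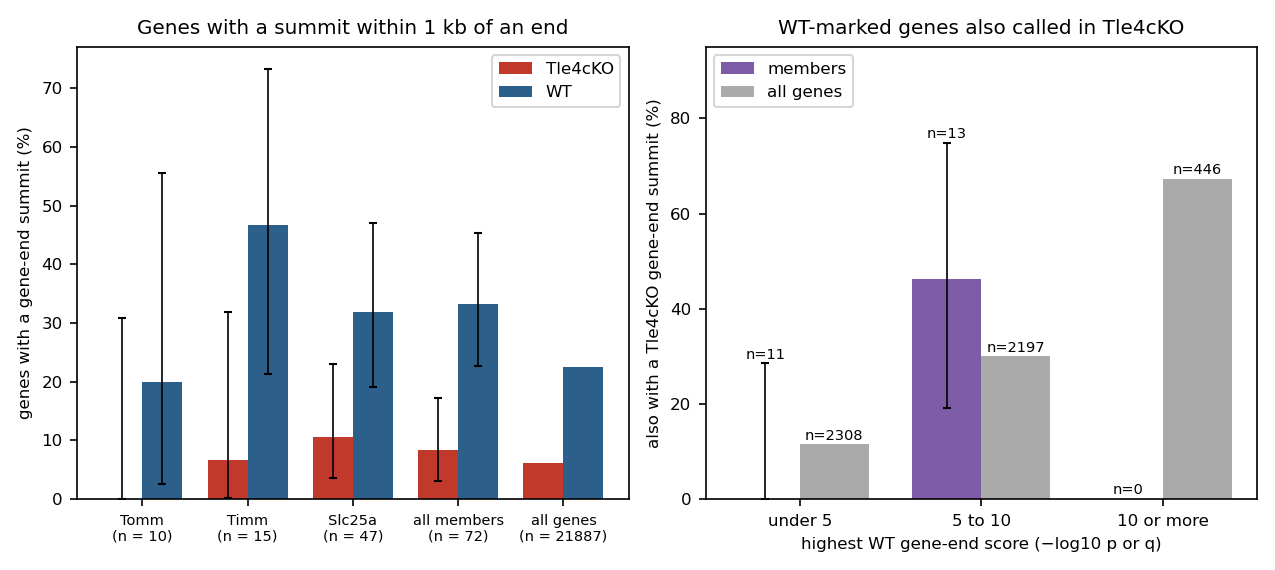
Left, percent of genes with a summit within 1 kb of a gene end in Tle4cKO and in WT, for each family, for all 72 genes and for all protein-coding genes. Right, percent of genes with a WT gene-end summit that also had a Tle4cKO one, by the highest WT score, for the 72 genes (members) and for all protein-coding genes; bars on members are exact 95% binomial intervals, and no interval is drawn for all genes. The share also called in Tle4cKO is 46.2% of 13 members with a score of 5 to 10 and 0% of 11 members with a score under 5.

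In the Tomm family 0 of 10 genes had a Tle4cKO summit at an end (interval up to 30.8%) and 2 had a WT one (20%, 2.52 to 55.6%). The shares over all genes, 6.19% and 22.6%, lie inside these intervals. Tomm70a (chromosome 16, 57121714 to 57154530, mm10) encodes the receptor that takes carrier precursors from cytosolic chaperones. In Tle4cKO its summit lay 9310 bp inside the gene, at position 57131024, with a score of 3.69, above 41.4% of the Tle4cKO list. In WT its summit lay 120 bp upstream of the transcription start, at position 57121594, with a score of 8.86, above 91.4% of the WT list. The 2 positions were 9430 bp apart, so the gene had summits in both libraries at different places. Tomm5, a small subunit of the TOM channel, had a WT summit of 5.64 at 98 bp downstream of its start and none in Tle4cKO. Tomm7, another small subunit, had a WT summit of 4.61 that lay 6568 bp outside the gene, with no other protein-coding gene within 10 kb. No summit of either library lay within 10 kb of Tomm40, the channel itself, of the receptors Tomm20 and Tomm22, or of Tomm6, Tomm20l, Tomm34 and Tomm40l.

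Of the inner membrane and intermembrane space genes, the Timm family, 1 of 15 had a gene-end summit in Tle4cKO (6.67%, 0.169 to 31.9%). In WT 7 did (46.7%, 21.3 to 73.4%), and the shares over all genes, 6.19% and 22.6%, lie inside these intervals. Timm9 (chromosome 12, 71123172 to 71136708) encodes a chaperone that forms a hexamer with Timm10 and shields carrier precursors in the intermembrane space. Its Tle4cKO summit scored 4.76 and its WT summit 7.82, and they lay 448 bp apart on opposite sides of the start. The Tle4cKO summit was 205 bp upstream and only 32 bp from an end of the neighbouring gene 2700049A03Rik, and the WT summit was 243 bp downstream, inside Timm9. The Timm9 pair therefore counted as shared at 500 bp and not at 200 bp. Timm10, the partner in the hexamer, had a WT summit of 5.08 and none in Tle4cKO. The WT-only genes of this chaperone group were completed by Timm8b (4.02) and Timm10b (3.63), while Timm8a1, Timm8a2, Timm13 and the TIM22 subunits Timm22 and Timm29 had no summit within 10 kb.

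In the presequence translocase and its motor, 0 of 6 genes had a Tle4cKO gene-end summit (interval up to 45.9%) and 3 had a WT one (50%, 11.8 to 88.2%). The shares over all genes, 6.19% and 22.6%, lie inside these intervals. Timm17a scored 5.58 and its X-linked paralogue Timm17b 3.89; both encode a core subunit of TIM23. Timm44, which ties the import motor to the channel, scored 4.59. The channel gene Timm23, the receptor gene Timm50 and Timm21 had none. All 7 WT summits of Timm genes lay downstream of the listed start, at 63 bp (Timm17b) to 568 bp (Timm10). Of these 7 summits, 5 also lay within 1 kb of an end of a neighbour: Sdhd, a succinate dehydrogenase subunit, at Timm8b, 2700049A03Rik at Timm9, Smtnl1 at Timm10, Arfip2 at Timm10b and Pqbp1 at Timm17b. Over the 72 genes, 2 of 6 Tle4cKO gene-end summits (33.3%) and 8 of 25 WT ones (32%) lay at the ends of 2 or more genes. Over all genes 20.7% and 18.1% of summits did, but there each summit was counted once. A summit at several gene ends is more often reached when starting from a set of genes, so these shares are not alike and show no excess.

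Of the 47 carrier genes, 5 (10.6%, 3.55 to 23.1%) had a gene-end summit in Tle4cKO and 15 (31.9%, 19.1 to 47.1%) in WT. The shares over all genes, 6.19% and 22.6%, lie inside these intervals. Slc25a3 (chromosome 10, 91116574 to 91124046) encodes the phosphate carrier that feeds ATP synthase. It had a Tle4cKO summit of 3.51 and a WT summit of 7.61, at 276 and 358 bp downstream of its start and 82 bp apart. Among the other adenine nucleotide and phosphate carriers, the WT summits of Slc25a17 (6.33, a peroxisomal carrier), Slc25a42 (5.25, the coenzyme A carrier), Slc25a24 (3.49, an ATP-Mg/phosphate carrier) and Slc25a41 (2.35) had no counterpart in Tle4cKO. The Slc25a41 summit lay 501 bp from an end of Khsrp, closer than to Slc25a41. Of the ADP/ATP carriers, Slc25a4 and Slc25a31 had no summit in either library, and Slc25a5 had a WT summit of 3.99 that lay 4640 bp from its nearest end.

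Slc25a12 (chromosome 2, 71274270 to 71367781) encodes the aspartate-glutamate carrier of the malate-aspartate shuttle and was the gene with most summits of the 72. In Tle4cKO it had 1 summit, 61 bp upstream of the start, whose score of 1.96 exceeded 2.17% of the Tle4cKO list. In WT it had 4: a summit of 6.20 at 80 bp upstream, 19 bp from the Tle4cKO summit, others of 3.77 and 8.02 at 29295 and 40063 bp into the gene, and a summit of 2.30 at 176 bp from the far end. The highest-scoring of the 4 thus lay inside the gene, above 88.5% of the WT list, and the nearest Tle4cKO summit was 40124 bp away. Slc25a13, which encodes the other aspartate-glutamate carrier, lacked summits within 10 kb in both libraries although it is 176 kb long. Of the remaining amino acid carriers, Slc25a29, a carrier of basic amino acids, had a WT summit of 7.20 at 378 bp upstream of its start, and Slc25a38, the glycine carrier, a WT summit of 4.26 in its body.

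**Figure D3:**
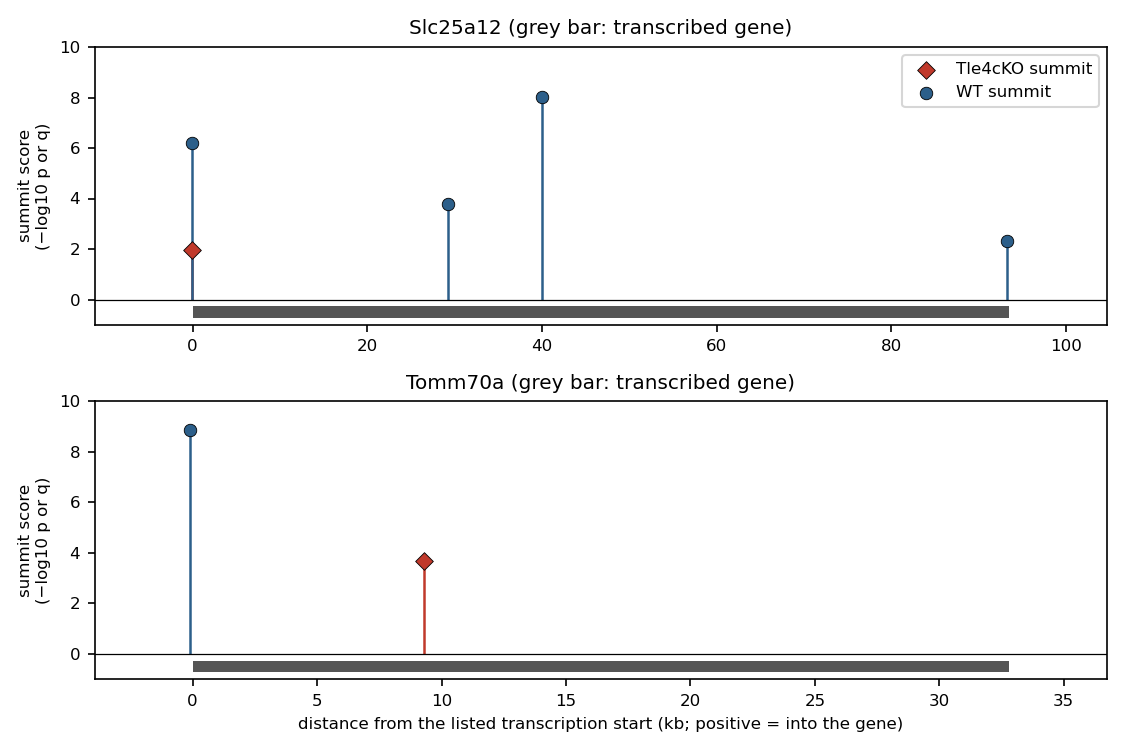
Summits at Slc25a12 (top) and Tomm70a (bottom) by distance from the listed transcription start in kb, with the summit score (authors' −log10 p or q) as height, diamonds for Tle4cKO and circles for WT; the grey bar is the gene. The Tle4cKO summit of Slc25a12 (1.96) stands at the start beside the WT one (6.20), while that of Tomm70a (3.69) stands 9310 bp from the start, where WT has none.

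Slc25a36 (chromosome 9, 97075281 to 97111041) encodes a pyrimidine nucleotide carrier. Its Tle4cKO summit of 3.64 lay 156 bp downstream of the start and its WT summit of 5.94 lay 27 bp upstream, 183 bp apart. The paralogue Slc25a33, also a pyrimidine nucleotide carrier, had no summit. Slc25a32, the folate carrier, had summits of 4.90 in Tle4cKO and 8.68 in WT that lay 4 bp apart, its scores being the highest of the carrier genes at a gene end in each library. Both Slc25a32 summits lay closer to an end of the neighbouring Dcaf13 (195 and 199 bp) than to Slc25a32 (349 and 353 bp), so they cannot be assigned to 1 of these genes. Slc25a46, an outer membrane protein of the family that takes part in mitochondrial fusion and fission, had summits of 3.62 in Tle4cKO and 6.12 in WT, 2 bp apart and inside the gene, 817 and 815 bp from its end.

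Carriers of iron and glutathione had WT summits alone, at the ends of 2 of 4 genes (50%, 6.76 to 93.2%). In Tle4cKO 0 of 4 had one (interval up to 60.2%), and over all genes 22.6% in WT and 6.19% in Tle4cKO did. Slc25a28, which encodes mitoferrin 2, had WT summits of 2.63 at 337 bp upstream of its start and 3.82 at 5040 bp upstream. Slc25a37, which encodes mitoferrin 1, had none. Slc25a39, the glutathione carrier, had a WT summit of 4.95, and its paralogue Slc25a40 had none. The WT-only gene-end calls also included the X-linked Slc25a53 (4.96) and Slc25a43 (3.30).

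Several summits counted within 10 kb lay at the end of another gene. The Tle4cKO summit counted for Slc25a22, a glutamate carrier and the only gene with a Tle4cKO summit alone in this window, had a score of 4.71 and lay 9587 bp upstream of Slc25a22 and 104 bp from an end of Pidd1. The WT summit counted for Slc25a30 (8.86) lay 311 bp from an end of Cog3, that of Slc25a10, the dicarboxylate carrier (4.46), 191 bp from Mrpl12, that of Slc25a2 (4.61) 123 bp from Taf7, and that of Slc25a54 was the gene-end summit of Slc25a24. Slc25a26, the S-adenosylmethionine carrier, had a WT summit of 4.33 inside the gene. With Slc25a12 and Slc25a38 it was 1 of 3 genes with a WT summit in the gene over 1 kb from its ends. Their share was 4.17% (0.868 to 11.7%), against 12% of all genes. The median gene length was 14.1 kb for the 72 genes and 17.2 kb for all genes, and its part in this share was not tested. No summit of either library lay within 10 kb of the citrate carrier gene Slc25a1, the oxoglutarate carrier gene Slc25a11, the carnitine carrier gene Slc25a20 or the NAD carrier gene Slc25a51. The same held for Slc25a14, Slc25a15, Slc25a16, Slc25a18, Slc25a21, Slc25a23, Slc25a25, Slc25a27, Slc25a34, Slc25a35, Slc25a44, Slc25a45, Slc25a47 and Slc25a48.

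Transcription starts with strand were listed for 58 of the 72 genes and for 17492 genes in all. All 4 Tle4cKO gene-end summits of these genes lay within 1 kb of a listed start (95.3% of such summits over all genes), and 19 of 21 WT ones did (90.5%, against 92.4%). The exceptions in WT were the far end of Slc25a12 and the summit of Slc25a39, 1385 bp upstream of its listed start. The median distance from the start, without regard to side, was 180 bp in Tle4cKO and 191 bp in WT, against 215 and 221 bp over all genes. In WT 12 of the 19 lay downstream of the start, as did 2417 of 3964 over all genes. Where the libraries shared a gene, the closest summits lay a median of 50.5 bp apart, against 98 bp over all shared genes.

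**Figure D4:**
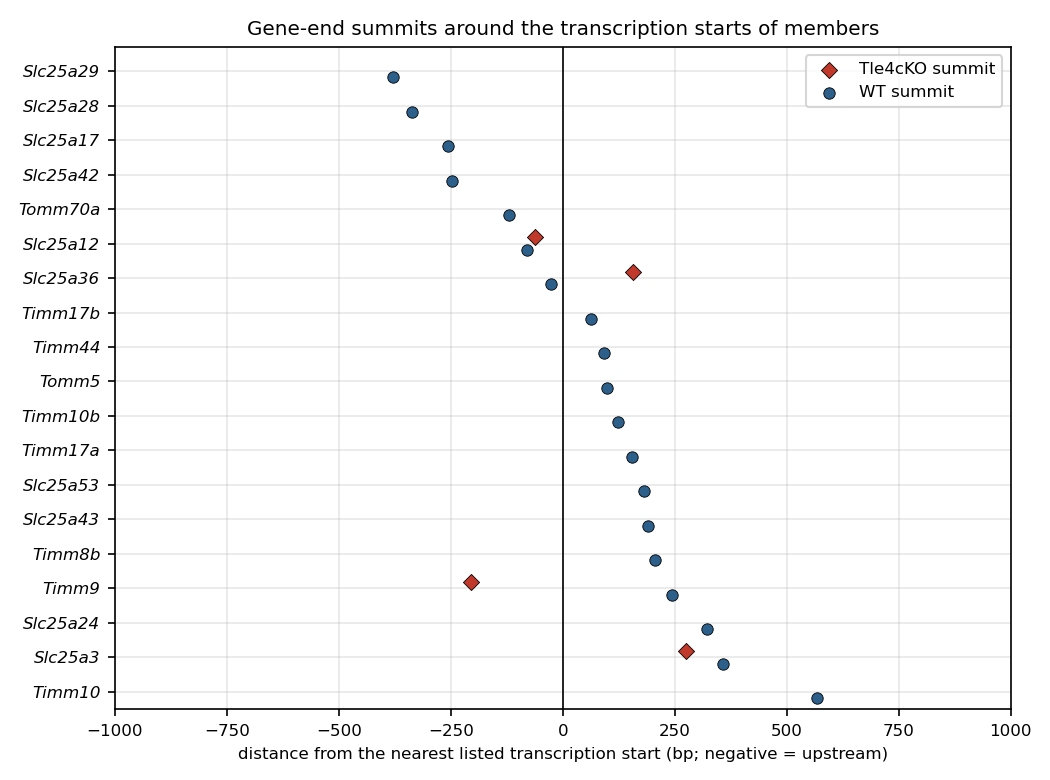
Distance in bp from the nearest listed transcription start for the gene-end summits of 19 import and carrier genes, with diamonds for Tle4cKO, circles for WT and negative values upstream. The WT summits run to 568 bp downstream at Timm10, and those of Tle4cKO lie beside them at Slc25a12, on the other side of the start at Slc25a36 and Timm9, and close by at Slc25a3.

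Over the 58 genes with a listed promoter, SP1 letters were found in 69% (49.2% of all 17492 genes), NFY letters in 44.8% (42.3%), ETS letters in 27.6% (12.9%), E-box letters in 20.7% (8.91%), NRF1 letters in 8.62% (9.61%), TATA letters in 6.9% (14.8%) and YY1 letters in 3.45% (3.57%). Import and carrier genes with a WT gene-end summit had a median GC content of 60.7% and a median CpG observed-to-expected ratio of 0.786 (n = 20), close to the 60.7% and 0.791 of all marked genes. Those without a WT summit had 58.5% and 0.673 (n = 38), against 54.7% and 0.442 of all unmarked genes. The E-box was found in 3 of the 20 marked and 9 of the 38 unmarked genes (15% and 23.7%). Over all marked and unmarked genes its shares were 12% and 7.96%. ETS was found in 6 and 10 of them (30% and 26.3%, against 25.1% and 9.21% over all such genes). SP1 was found in 15 and 25 of them (75% and 65.8%, against 68.1% and 43.4%). These matches are descriptions of the letters in a window and were not tested.

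A list of other genes, most with roles in import and transport and named outside these families, was examined beside them. Of its 43 genes, 5 had a gene-end summit in Tle4cKO, of which 4 also had one in WT. In WT 25 (58.1%) had one. The shares over all genes were 6.19% in Tle4cKO and 22.6% in WT. The list was chosen with earlier results of these data known, and no interval was computed for it. A WT summit shared by neighbouring genes of the list counted for each of them, and the contrast was not tested. Vdac2, an outer membrane channel, had gene-end scores of 8.08 in Tle4cKO and 15.0 in WT, and its paralogue Vdac1 2.55 and 5.19. Hspa9, the mitochondrial Hsp70 of the import motor to which Timm44 binds, had 6.17 in Tle4cKO and 9.90 in WT. Micu3, a regulator of the calcium uniporter, had 5.44 and 2.36, and Mtch1, an outer membrane member of the carrier superfamily, had a Tle4cKO summit alone (2.94). Within 10 kb, Sfxn3 and Sfxn4 also had summits in both libraries, and Micu2 a Tle4cKO summit alone (6.07). Among the highest WT gene-end scores, Smdt1, a subunit of the calcium uniporter, had 10.2 and Timmdc1 9.84, each with none in Tle4cKO. The processing peptidase genes Pmpca and Pmpcb and the intermembrane space import genes Chchd4 and Gfer had no summit within 10 kb.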

How the data were processed

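H3K27ac CUT&Tag was measured in 1 pooled library per genotype. Per the submitters' processing notes, reads were handled with cutadapt 1.14 and Bowtie2 2.2.5 on mm10; the peak caller, any control and the read depth were not stated in the labels. The authors deposited 1-bp summits with a score per peak, taken as −log10 p or −log10 q from the file layout and from the lowest scores (1.37 in Tle4cKO, 1.35 in WT), just over 1.30, which corresponds to 0.05; p and q could not be told apart. Summits on the mitochondrial chromosome (2 in Tle4cKO, 4 in WT) were not used.

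Gene positions came from RefSeq on GRCm38.p6, counted from 1. A gene end is either outer end of a gene, with a window of 1 kb. Summits of the libraries within 500 bp of each other were called shared. Intervals are exact Clopper-Pearson 95% intervals (scipy 1.17.1). The window steps were tested on simulated data. The genes, the role groups and the other lists were chosen with earlier results of these data known. Named are the genes with a Tle4cKO summit, the 10 highest WT-only gene ends, every Tomm and Timm gene and the carriers by name. Of the other import genes, those called in both libraries and high WT scores are named, and further genes were chosen after their values were seen. Promoter features were taken per gene, a motif counting when any listed promoter of the gene held it. Of the import and carrier genes 1, and of the other import genes 1, enter the counts but are not reported here by name. The planned start-based window was run for the 58 genes with a listed start.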

Additional observations from a re-analysis of the deposited data

How the results depend on the processing

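Of 43 alternative values, 25 stayed within 1.5 times the reported count or inside the reported interval of a share. Among them were all at gene-end windows of 500 bp and 2 kb, at listed starts and on autosomes alone. So were all at 5 kb around the gene and at partner distances of 200 bp and 1 kb. This limit does not cover the gap to all genes. At 500 bp 20 of 72 genes had a WT gene-end summit, against 19% of all genes, and no interval was computed for that count. At 2 kb 24 did, against 25.2%, which lies inside the interval of 22.7 to 45.4% for that count. At listed starts 19 of 58 did (32.8%, 21 to 46.3%), against 25%, also inside the interval. The alternatives beyond that limit came with a wider, narrower or shorter choice of window or list, or with each summit given to its nearest gene. Why each moved was not tested. They are given next, together with some values that stayed within the limit and are named as such. Inside the gene only, 4 genes had a Tle4cKO and 16 a WT summit (7.26% and 25.3% of all genes). There 12.5% of the WT-marked genes were also marked in Tle4cKO (25% of all such genes), a share within the limit. Within 50 kb, 23 and 56 did (22.9% and 59.6%), and 41.1% of the WT-marked genes were also marked in Tle4cKO (36.9%). With each summit given to its nearest gene, 5 genes had a Tle4cKO summit (8.69% of all genes). At a score of at least 5, gene-end counts were 0 in Tle4cKO and 13 in WT (1.97% and 12.1% of all genes) and counts within 10 kb 0 and 15 (3.61% and 20.9%). At that score the share of WT-marked genes also called in Tle4cKO was 0% of 13 at gene ends (13.8% over all genes). It was 0% of 15 within 10 kb (14.7%). Of the 16 WT summits within 10 kb 0% were shared, against 13.6% of all WT summits at that score, near genes or not. With depth unknown, the same cut may not be equally strict in both lists, so these shares cannot be read as lost peaks. With only the top WT summits kept, as many as Tle4cKO has, 5 genes had a WT gene-end summit (7.51% of all genes), of which 3 (60%, against 43.9%) were called in Tle4cKO. Within 10 kb 7 had one (12.8%), of which 5 (71.4%, against 47.7%) were. Of the 7 WT summits there 3 were shared (42.9%), against 42.5% of all WT summits kept, near genes or not. Leaving out summits closer to another gene, an alternative chosen after seeing the data, left 4 Tle4cKO and 21 WT genes (5.14% and 19.3% of all genes). Both counts stayed within the limit. No paired analysis was possible because each genotype has 1 library, and no replicate could be left out. Unknown depth limits any reading of a missing peak.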
